A study of Mus musculus with 19 samples.

Results

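Genes of cholesterol and fatty acid synthesis were followed through 6 groups of sorted mouse CD4+ T cells on 19 expression arrays. The module holds 36 genes that were listed by function: 7 of the mevalonate route, 10 of the sterol route, 6 regulators, 3 of cholesterol transport and efflux, 3 of fatty acid synthesis and 7 desaturases and elongases. Each gene was read from the probe set (the group of short probes that reports 1 transcript) with the highest mean over the 19 arrays among those annotated with that gene symbol alone. A named probe set was found for 34 of the 36 genes, and Acat2 and Nr1h2 are not reported here. A gene was kept at log2 4 or more on at least 2 arrays, which held for 33 of the 34 genes and for 9928 of 18193 genes in all. Fdft1, Hsd17b7, Acly, Elovl1, Elovl5, Mvd and Lss were read from probe sets that, by their names, may also bind other or related transcripts.

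The mevalonate route turns acetyl-CoA into isoprenoid units, which also serve protein prenylation, and the sterol route joins these units into squalene and closes and trims the ring to cholesterol. SREBP transcription factors switch on both routes and fatty acid synthesis when membrane sterol is low, and INSIG proteins hold the SREBP escort SCAP in the endoplasmic reticulum when it is high. Oxysterols, made when sterol is plentiful, act through LXR receptors to raise the cholesterol exporters Abca1 and Abcg1. Activated T cells draw on these routes for the membranes of dividing cells.

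The cells came from C57BL/6J mice. Per a protocol text given for all samples, OT-II T cells, whose transgenic receptor sees an ovalbumin peptide, carried a Bcl6yfp/+ reporter allele and were transferred to congenic mice that then received NP-OVA in CFA under the skin. CXCR5hi PD-1hi cells from draining lymph nodes, the surface type of follicular helper T cells, were sorted as YFP-positive (n = 4; replicates 1, 2 and 3 of day 7, replicate 4 of day 10) or YFP-negative (n = 4; replicates 2 and 3 of day 7, replicates 1 and 4 of day 10). CXCR5lo PD-1lo cells (n = 3) were all of day 7. CXCR5hi PD-1hi cells without a split by YFP came from Bcl6yfp/+ cells (n = 3, day 7) and Bcl6+/+ cells (n = 3; replicates 1 and 2 of day 10, replicate 3 of day 7). Naive CD4+ cells (n = 2), sorted as CD44lo CD62Lhi, were spleen cells of mice that had not been immunized and have no day. The protocol text may not describe the naive or the Bcl6+/+ cells, and the labels give neither age nor whether each array of a group stands for an animal of its own. P-values therefore cover only the spread among these arrays, part of which may be technical.

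The deposited values were not on 1 common distribution: the arrays fell into 7 sets with near-identical distributions, and in the reporter sort each set held the arrays of 1 replicate number, with naive replicate 1 in that of number 4. Bcl6yfp/+ and Bcl6+/+ replicates 2 and 3 were closer to each other than any other pair of arrays, although Bcl6+/+ replicate 2 is labelled day 10. Both genotype groups and naive replicate 2 may have been extracted with another kit, per the labels. Y-linked transcripts were detected in YFP-positive replicate 4, YFP-negative replicates 1 and 4, all genotype arrays and naive replicate 2, so within the reporter sort day 10 and Y-linked transcripts cannot be told apart. All 7 T cell markers with a probe set reached log2 4 on every array, with a mean of 13.48 or more. Of 6 B cell markers, 5 were below log2 4 on all 19 arrays, and Cd79b reached 5.26 to 5.36 on the CXCR5lo PD-1lo arrays only. The secreted protein genes Lyz2 and Jchain reached 10.98 and 12.42 on YFP-negative replicate 1. Jchain also reached 7.72 to 10.53 on the CXCR5lo PD-1lo arrays and 8.45 on YFP-positive replicate 1, while 6 of 9 myeloid markers, Csf1r and Itgam among them, stayed below 4 in YFP-negative cells. Of 5 plasma cell markers, Jchain, Prdm1 and Xbp1 reached log2 4 on each CXCR5lo PD-1lo array, and Sdc1 and Tnfrsf17 on none. Naive arrays reached 2 or 3 of the 5, YFP-negative arrays 1 to 3 and YFP-positive arrays 1 or 2. Means were 5.36 to 6.82 in CXCR5lo PD-1lo, 4.73 to 4.76 in naive, 4.01 to 6.94 in YFP-negative and 3.90 to 5.30 in YFP-positive cells. Xbp1 stood at 8.74 or more on all 19 arrays, and Prdm1 at 7.75 and 4.32 in naive cells. The 4 plasma cell markers kept were all lower in YFP-positive than in YFP-negative cells, by a median of -0.59, and their part in the results was not tested. In such bulk samples fewer cells of a type and less RNA per cell cannot be told apart.

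Promoters are shown first, since SREBP works beside the factor NF-Y and the mevalonate and sterol genes leaned the same way in some comparisons. RefSeq (GRCm38.p6) gives a promoter of 300 bases, 250 before the start to 50 after it, for 28 of the 36 genes. The NF-Y box CCAAT, on either strand, stood in 21 of these 28 genes (75%), against 41.1% of 27025 genes. These 27025 genes were not limited to genes kept by the filter. The GC box GGGCGG stood in 78.6% against 38.2% and the E-box CACGTG in 25% against 8.09%. The sterol regulatory element TCACNCCAC stood only in Hmgcs1 (3.57% against 1.44%); with at most 1 of its 8 fixed letters changed it stood in 11 of 28 genes (39.3%), against 26.7%. The LXR element, a direct repeat with 4 bases between its parts, stood in 0 of 28 genes and in 0.0148% of all genes. The 6 windows of 150 bases that follow end at the base before the start and belong to genes with a role in the results: Hmgcs1, which holds the sterol element, Idi1, the enzyme with the largest difference between the YFP fractions and between days, Cyp51, Tm7sf2 and Mvd, which passed a test, and the exporter Abca1. Capitals mark the NF-Y box on either strand, the E-box and, in Hmgcs1, the sterol element.
Hmgcs1, chr13:119690201-119690350, strand +: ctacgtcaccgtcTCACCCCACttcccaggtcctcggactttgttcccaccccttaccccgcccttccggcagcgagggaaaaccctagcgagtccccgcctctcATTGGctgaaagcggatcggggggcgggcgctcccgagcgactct
Idi1, chr13:8885456-8885605, strand +: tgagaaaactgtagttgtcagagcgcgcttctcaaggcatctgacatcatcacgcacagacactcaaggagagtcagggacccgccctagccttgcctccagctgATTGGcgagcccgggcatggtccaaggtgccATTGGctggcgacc
Cyp51, chr5:4104698-4104847, strand -: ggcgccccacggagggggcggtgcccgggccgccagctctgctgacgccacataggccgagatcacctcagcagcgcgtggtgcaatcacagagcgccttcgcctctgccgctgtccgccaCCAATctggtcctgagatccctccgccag
Tm7sf2, chr19:6067851-6068000, strand -: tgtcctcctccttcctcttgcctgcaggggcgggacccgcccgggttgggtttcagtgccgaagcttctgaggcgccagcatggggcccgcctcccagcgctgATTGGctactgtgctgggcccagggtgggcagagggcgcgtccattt
Mvd, chr8:122443423-122443572, strand -: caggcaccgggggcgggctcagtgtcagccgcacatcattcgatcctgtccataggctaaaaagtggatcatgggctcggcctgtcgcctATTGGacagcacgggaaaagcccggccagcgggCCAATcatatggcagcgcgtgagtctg
Abca1, chr4:53159896-53160045, strand -: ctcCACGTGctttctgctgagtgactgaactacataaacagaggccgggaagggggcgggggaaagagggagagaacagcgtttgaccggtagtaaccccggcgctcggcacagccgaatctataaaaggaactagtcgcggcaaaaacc
The Hmgcs1 window holds the sterol element at -137 and an NF-Y box at -45, and Idi1, Cyp51, Tm7sf2 and Mvd hold NF-Y boxes at -45 and -14, at -29, at -47, and at -60 and -27. Abca1 holds none in its window and has an E-box at -147. These are matches of letters and say nothing on binding in these cells.

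YFP-positive cells were compared with YFP-negative cells to ask how the reporter for BCL6, the repressor that defines follicular helper cells, divides the CXCR5hi PD-1hi fraction. All 6 mevalonate genes and all 10 sterol genes kept had a higher mean in YFP-positive cells, with medians of log2 0.59 and 0.56 against 0.00 for all genes tested. None of the 33 genes passed limma's test over all genes (Benjamini-Hochberg adjusted p under 0.05), and 0.121% of all genes did; 5 of 33 had an unadjusted p under 0.05, against 7.92% of all genes. Same-numbered samples were taken as pairs. Pair 1 sets a day 7 array without Y-linked transcripts against a day 10 array with them, so it is not of matched cells. In 4 of 4 pairs YFP-positive cells were higher for 18 of 33 genes, against 24.3% of all genes. Over the 3 pairs of 1 day each, 19 of 33 genes were higher in every pair, against 28.7% of all genes. With the normalization set as a block, 14 of 33 genes were called, against 15.6% of all genes. The 11 that rose were Hmgcs1, Pmvk, Idi1, Fdps, Fdft1, Cyp51, Tm7sf2, Insig1, Stard4, Acaca and Fads2, and the 3 that fell were Elovl6, Abca1 and Abcg1. With the replicate number as a block (2.7% of all genes called), Pmvk (log2 difference 0.56, SE 0.09, adjusted p = 0.0388) rose and Elovl6 (-0.78, SE 0.10, adjusted p = 0.03) fell in limma; over the settings tried their adjusted p ran from 0.00792 to 1 and from 0.0149 to 1.

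Idi1, which isomerises the isoprenoid unit, stood at log2 11.28, 10.86, 11.61 and 8.43 in YFP-positive replicates 1 to 4 and at 6.63, 9.36, 9.95 and 6.96 in YFP-negative replicates 1 to 4. The day 10 arrays were the lowest of either group, and the groups overlapped (log2 difference 2.32, SE 0.77, adjusted p = 0.257). Within pairs the difference was 4.65, 1.50, 1.66 and 1.47; pair 1 sets a day 7 array against a day 10 array, and the 3 pairs of 1 day differed by 1.47 to 1.66. Without YFP-negative replicate 1, which also carried Lyz2 and Jchain, the difference of Idi1 was 1.79 and that of Abca1 -2.28, and the part of those transcripts was not tested. Cyp51, the lanosterol demethylase, stood at 11.50, 11.45, 11.86 and 9.92 in the YFP-positive and at 9.26, 10.53, 10.67 and 9.13 in the YFP-negative fraction. It was higher in YFP-positive cells in 4 of 4 pairs, by 2.24, 0.92, 1.18 and 0.79. Sqle, the squalene epoxidase, which adds the first oxygen to squalene, stood at 8.86, 9.00, 9.80 and 7.62 in the YFP-positive and at 6.94, 8.59, 8.79 and 7.05 in the YFP-negative fraction. Its pairs differed by 1.92, 0.41, 1.01 and 0.57, and the groups overlapped (log2 difference 0.98, SE 0.50, adjusted p = 0.737). Hmgcs1, which makes HMG-CoA, differed less: it stood at 13.58, 13.49, 13.45 and 12.41 in the YFP-positive and at 13.12, 13.18, 12.86 and 12.40 in the YFP-negative fraction. In the pair of day 10 arrays its difference was 0.01. The remaining mevalonate and sterol genes differed by 0.01 (Nsdhl) to 1.09 (Fdps, the farnesyl diphosphate synthase), none of which passed limma's test.

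**Figure D1:**
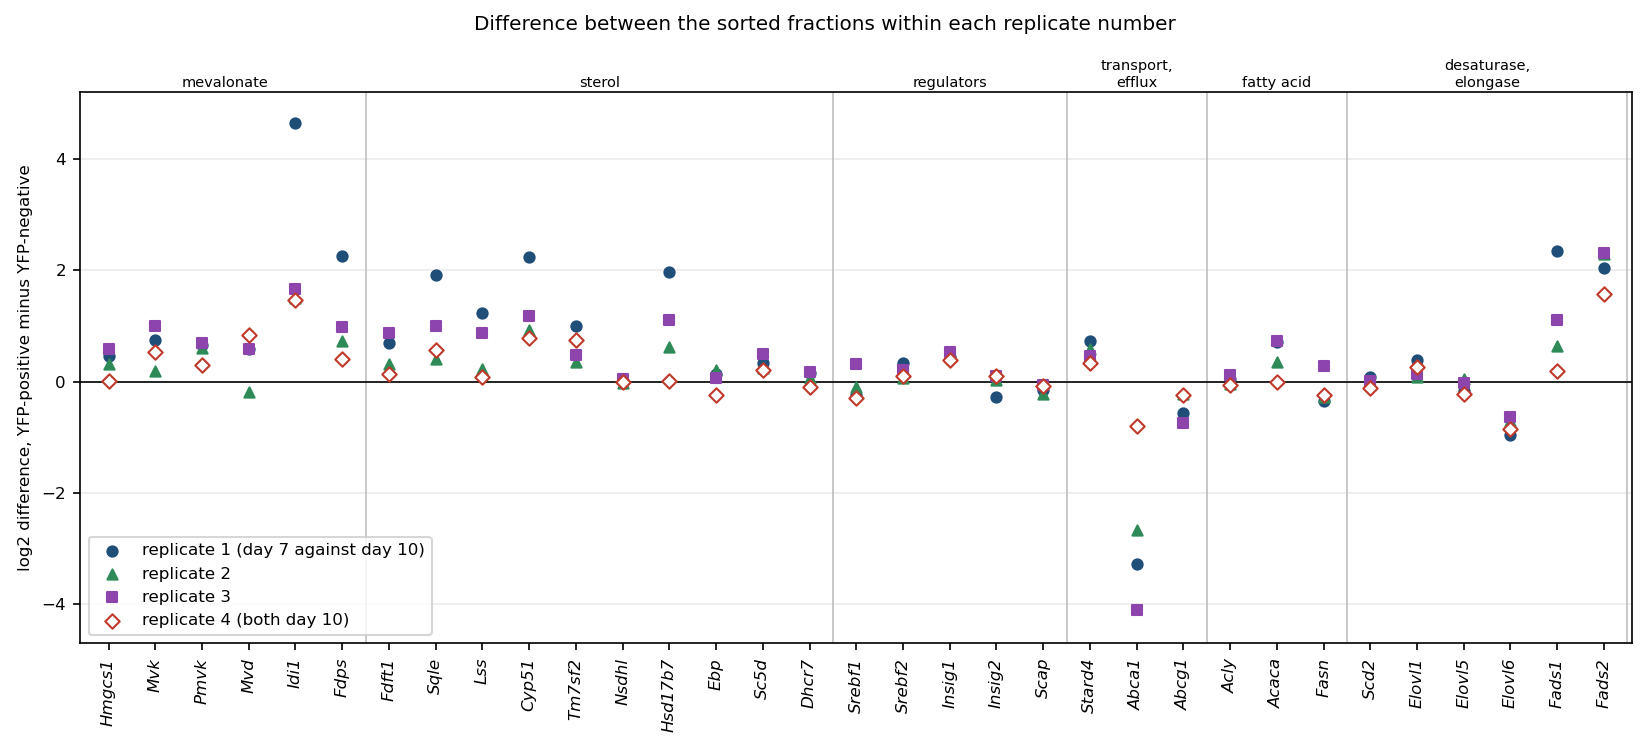
Log2 difference between YFP-positive and YFP-negative cells for the 33 genes kept, by role, with 1 symbol for each of the 4 replicate numbers; replicate 1 sets day 7 against day 10. Idi1 lies at 4.65 in pair 1 and at 1.47 to 1.66 in the others, and Abca1 lies below 0 in all 4 pairs.

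The regulators showed small differences. Insig1, itself an SREBP target that restrains SREBP, stood at 13.44, 12.97, 12.55 and 12.52 in the YFP-positive and at 13.00, 12.46, 12.02 and 12.14 in the YFP-negative fraction, and its pairs differed by 0.44, 0.51, 0.53 and 0.38. The groups overlapped. Srebf2, which encodes the SREBP of sterol synthesis, stood at 12.37, 12.30, 11.99 and 11.82 in the YFP-positive and at 12.03, 12.23, 11.78 and 11.72 in the YFP-negative fraction. Srebf1, which encodes the SREBP of fatty acid synthesis, stood at 10.14, 10.14, 10.34 and 9.49 in the YFP-positive and at 10.37, 10.24, 10.03 and 9.77 in the YFP-negative fraction. The differences of Insig1, Srebf2 and Srebf1 were 0.47 (SE 0.37), 0.18 (SE 0.34) and -0.08 (SE 0.27), and none passed. The messages report no protein processing, by which SREBP activity is set.

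The cholesterol exporter Abca1 had the opposite sign. It stood at 7.71, 6.75, 4.10 and 9.44 in YFP-positive replicates 1 to 4 and at 10.98, 9.42, 8.20 and 10.23 in YFP-negative replicates 1 to 4. YFP-positive cells were lower in 4 of 4 pairs, by log2 -3.27, -2.67, -4.10 and -0.79, and the groups overlapped only through the day 10 YFP-positive array (log2 difference -2.71, SE 0.85, adjusted p = 0.224, limma). Without that array, which leaves YFP-positive arrays of day 7 against YFP-negative arrays of both days, 2 of the 33 genes passed, against 3.09% of all genes: Abca1 at -3.52 (adjusted p = 0.025; 0.023 to 0.698 over the settings tried) and Idi1 at 3.02 (adjusted p = 0.0359; 0.0359 to 0.781). With day as a covariate neither passed, at -2.37 (adjusted p = 0.311) and 1.78 (adjusted p = 0.206). Abcg1, the partner exporter, stood at 12.87, 12.79, 11.83 and 12.94 in the YFP-positive and at 13.43, 13.01, 12.57 and 13.17 in the YFP-negative fraction. It too was lower in YFP-positive cells in 4 of 4 pairs, by at most 0.74. Other probe sets of Abca1 lay at the floor of the scale, so its values rest on 1 probe set. Stard4, a carrier of cholesterol between membranes, stood at 12.31, 11.63, 11.47 and 10.89 in the YFP-positive and at 11.58, 11.05, 11.02 and 10.55 in the YFP-negative fraction, and was higher in YFP-positive cells in 4 of 4 pairs (log2 difference 0.53, SE 0.42, adjusted p = 1, limma).

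Among fatty acid genes the polyunsaturated desaturases leaned towards YFP-positive cells. Fads2 stood at 4.98, 7.24, 9.27 and 6.45 in the YFP-positive and at 2.94, 4.95, 6.96 and 4.88 in the YFP-negative fraction. Its pairs differed by 2.04, 2.29, 2.31 and 1.57, but levels differed widely between numbers and the groups overlapped (log2 difference 2.05, SE 1.12, adjusted p = 0.789, limma). Fads1 stood at 7.69, 8.38, 9.20 and 7.03 in the YFP-positive and at 5.34, 7.75, 8.09 and 6.83 in the YFP-negative fraction; the largest pair difference, 2.35, was again that of pair 1. Fasn, which makes palmitate, stood at 10.88, 10.88, 11.05 and 10.24 in the YFP-positive and at 11.22, 11.15, 10.78 and 10.48 in the YFP-negative fraction, with no common sign over the pairs. Scd2, a desaturase that makes oleate, stood at 13.89, 13.87, 13.53 and 13.38 in the YFP-positive and at 13.81, 13.88, 13.53 and 13.49 in the YFP-negative fraction, and its pairs differed by no more than 0.11 in size. Its relative Scd1 was near the floor, at 2.12, 2.13, 4.54 and 3.25 in YFP-positive cells and at 2.12 to 2.69 on all arrays of the other groups, and did not pass the filter. Elovl6, which elongates palmitate, stood at 9.01, 9.26, 9.29 and 8.08 in the YFP-positive and at 9.96, 9.96, 9.92 and 8.93 in the YFP-negative fraction and was lower in YFP-positive cells in 4 of 4 pairs.

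**Figure D2:**
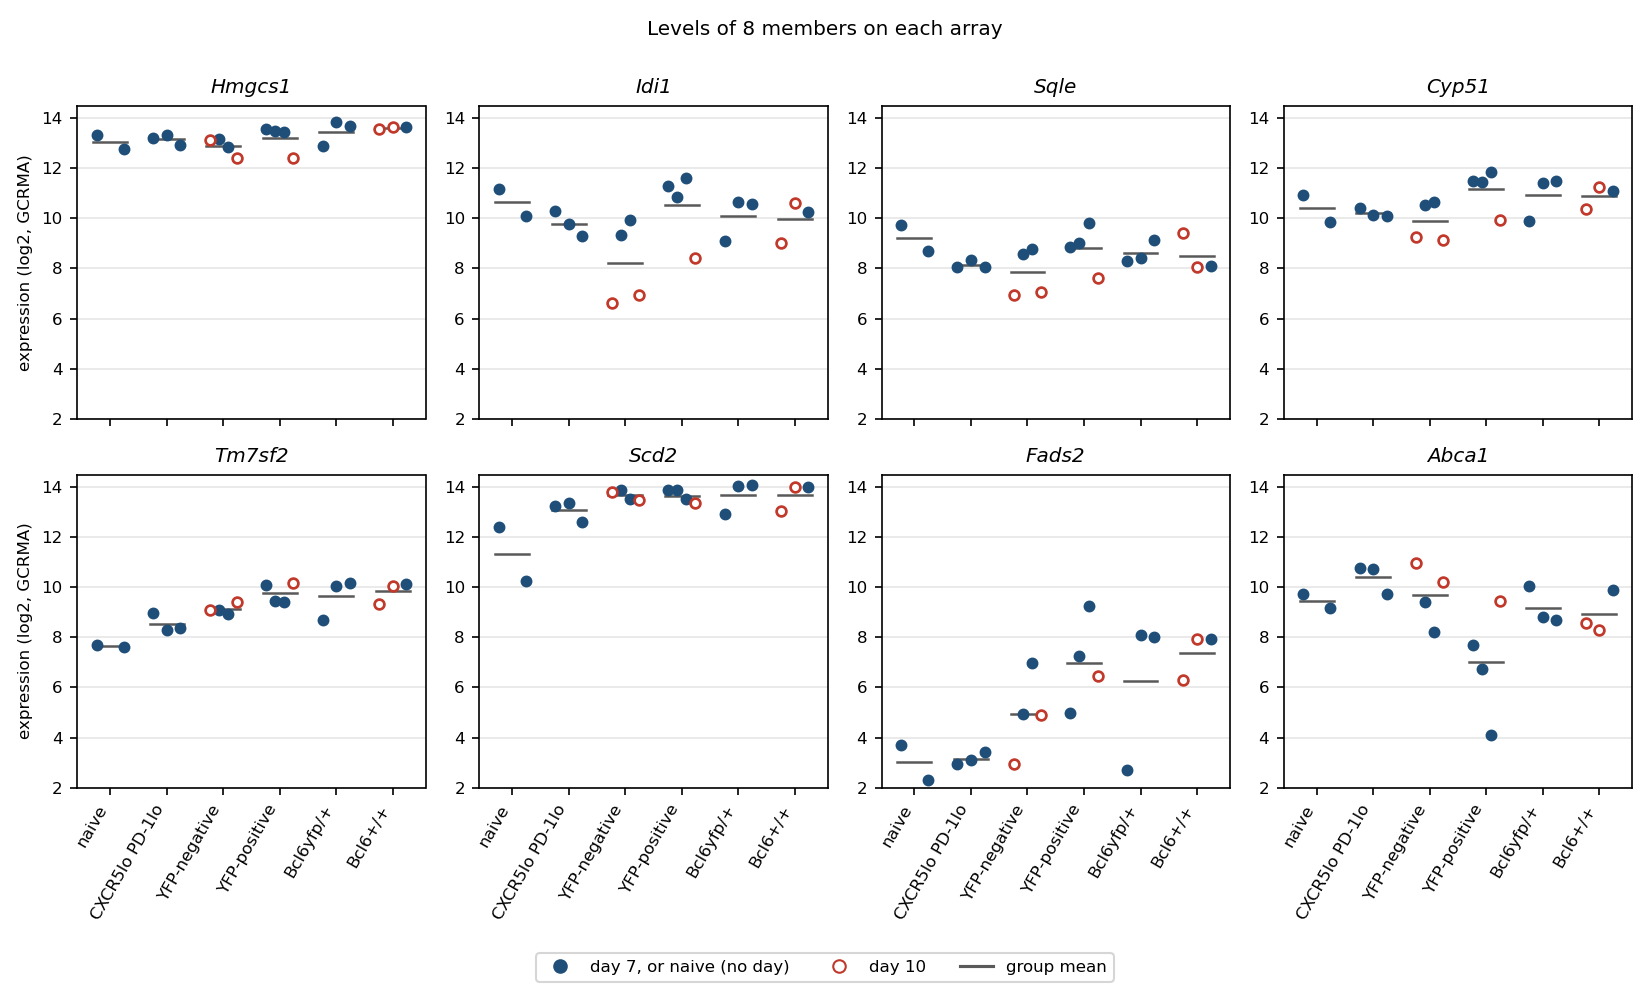
Log2 levels of 8 genes on each of the 19 arrays by group; filled points are day 7 or naive, open points day 10, and lines are group means. Idi1, Sqle and Cyp51 show their lowest YFP-positive and YFP-negative values on the day 10 arrays, Abca1 shows its highest there, and Scd2 and Tm7sf2 lie above naive in every other group.

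Both CXCR5hi PD-1hi fractions were next set against CXCR5lo PD-1lo cells, the activated cells of the same lymph nodes outside the follicular gate; both comparisons share these 3 arrays. In YFP-positive cells 3 of 33 genes were called (10.6% of all genes). Tm7sf2, a sterol reductase, rose 2.36-fold (log2 difference 1.24, SE 0.34, adjusted p = 0.0252, limma). It stood at 10.09, 9.45, 9.42 and 10.17 in YFP-positive against 8.98, 8.28 and 8.37 in CXCR5lo PD-1lo cells, with no overlap. Elovl6 fell by 1.64 (SE 0.38, adjusted p = 0.0087), from 10.20, 10.78 and 10.66 in CXCR5lo PD-1lo cells, again with no overlap. Abca1 fell by 3.40 (SE 0.91, adjusted p = 0.0236), from 10.76, 10.71 and 9.73 in CXCR5lo PD-1lo cells, and did not overlap either. Fads2 had the largest positive difference, 3.83 (SE 1.21, adjusted p = 0.0536, limma), from 2.94, 3.10 and 3.41 in CXCR5lo PD-1lo cells, near the floor, and did not pass. It was kept by the filter only through CXCR5hi PD-1hi arrays, so its direction here was fixed by that choice. With the replicate number as a block, 13 genes were called (37.2% of all genes), 10 higher and 3 lower; among them were Pmvk at 1.37, Stard4 at 1.19, Cyp51 at 1.31, Dhcr7 at 0.51 and Fads2 at 3.93. A block on the normalization set gave 21 (44.7%). Without CXCR5lo PD-1lo replicate 2, 0 genes were called in the unblocked limma fit (6.59% of all genes), and 7 had an unadjusted p under 0.05. Tm7sf2 also lost its call on day 7 and naive arrays only, and without YFP-positive replicate 1 or 4 or CXCR5lo PD-1lo replicate 3. Abca1 also lost its call with no filter, with only the groups compared, and without YFP-positive replicate 2 or 3 or CXCR5lo PD-1lo replicate 1. Elovl6 kept its call in 16 of 17 alternatives. Cd79b and Jchain were higher in the CXCR5lo PD-1lo arrays, and their part in these differences was not tested.

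In YFP-negative cells 1 of 33 genes was called against CXCR5lo PD-1lo cells (6.53% of all genes). Mvd, which decarboxylates mevalonate diphosphate, fell by 1.60 (SE 0.44, adjusted p = 0.0365, limma). It stood at 6.93, 7.27, 6.93 and 5.35 in YFP-negative replicates 1 to 4 against 8.83, 8.08 and 7.76 in CXCR5lo PD-1lo cells. The groups did not overlap, and the lowest value was that of day 10 replicate 4; the call was lost without YFP-negative replicate 1 or 4, without CXCR5lo PD-1lo replicate 1 or 2, and with day as a covariate. With the normalization set as a block 9 genes were called (30.5% of all genes). With the replicate block 7 were called (24%): Dhcr7, Pmvk, Scd2, Stard4 and Tm7sf2 higher, by 0.44 to 0.81, and Elovl6 and Mvd lower, by -0.59 and -1.24. Idi1 and Sqle stood lower in YFP-negative cells by group mean, by -1.57 and -0.31. With day as a covariate they differed by -0.48 (SE 0.59) and 0.20 (SE 0.50), and none of these passed. The day 7 YFP-negative replicates 2 and 3 lay at 9.36 and 9.95 for Idi1, within the 9.28 to 10.31 of CXCR5lo PD-1lo cells. In CXCR5lo PD-1lo cells Hmgcs1 stood at 13.23, 13.31 and 12.92, Sqle at 8.04, 8.35 and 8.07, Cyp51 at 10.41, 10.12 and 10.11 and Idi1 at 10.31, 9.79 and 9.28. Their regulators Insig1, Srebf1 and Srebf2 stood there at 13.46, 12.55 and 12.01, at 10.22, 9.97 and 10.11 and at 12.01, 12.06 and 11.91. The carrier Stard4 stood at 11.49, 10.24 and 10.03, Abcg1 at 12.96, 12.78 and 12.14, Fasn at 11.20, 10.80 and 10.87, Scd2 at 13.25, 13.35 and 12.62 and Fads1 at 6.42, 6.72 and 7.16.

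Against naive cells, genes as a whole were shifted upwards: the median of all genes tested was 0.46 in CXCR5lo PD-1lo, 0.39 in YFP-positive, 0.38 in YFP-negative, 0.37 in Bcl6yfp/+ and 0.64 in Bcl6+/+ cells. The medians of the 33 genes, 0.26, 0.47, 0.26, 0.45 and 0.64 in the same order, lay near these shifts, and quantile normalization of all arrays turned them to -0.24, -0.04 and -0.22 in the first 3 groups, with all genes at -0.08 in each. The counts called were 1 of 33 in CXCR5lo PD-1lo (11.9% of all genes), 8 in YFP-positive (28.8%), 5 in YFP-negative (21.1%), 4 in Bcl6yfp/+ (20.5%) and 11 in Bcl6+/+ cells (35.9%). These shares of the 33 genes were near or below the background. All 5 comparisons share the same naive arrays, and without naive replicate 2 the counts were 0, 1, 0, 1 and 1, with 5.73%, 16%, 11.3%, 12.7% and 17.9% of all genes called. Genes called higher and lower numbered 1 and 0 in CXCR5lo PD-1lo, 7 and 1 in YFP-positive, 4 and 1 in YFP-negative, 4 and 0 in Bcl6yfp/+ and 11 and 0 in Bcl6+/+ cells. After quantile normalization they numbered 2 and 1, 4 and 4, 3 and 7, 5 and 1, and 5 and 1, with 13.8%, 38.2%, 28.2%, 25.6% and 28.6% of all genes called. With the normalization set as a block they numbered 1 and 10, 6 and 8, 4 and 12, 5 and 1, and 3 and 0, with 23.3%, 46.9%, 41.6%, 27.2% and 18.6% of all genes called. In this fit naive replicate 1 shares a set only with the day 10 YFP-positive and YFP-negative replicates 4. Naive replicate 2 shares a set only with Bcl6yfp/+ replicate 1. The balance of directions thus differed between the fits, and the cause was not tested.

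Scd2 rose in all 5 comparisons with naive cells, and Tm7sf2 and Insig2 in 4. Scd2 stood at 12.43 and 10.26 in naive replicates 1 and 2, which lay further apart than any other group's arrays, at 12.92, 14.04 and 14.11 in Bcl6yfp/+ and at 13.03, 14.02 and 14.02 in Bcl6+/+ cells. Every array of the other groups lay above both naive arrays; the differences ran from 1.73 (SE 0.51, adjusted p = 0.0374) in CXCR5lo PD-1lo to 2.35 (SE 0.51, adjusted p = 0.00256) in Bcl6+/+ cells. Blocked by normalization set it was 0.9997 against naive in YFP-positive cells and 1.01 in YFP-negative cells. Tm7sf2 stood at 7.70 and 7.62 in naive cells, at 8.69, 10.07 and 10.17 in Bcl6yfp/+ and at 9.35, 10.06 and 10.13 in Bcl6+/+ cells, with no overlap. It was called in the 4 CXCR5hi PD-1hi groups, from 1.48 (SE 0.38, adjusted p = 0.0106) in YFP-negative to 2.19 (SE 0.40, adjusted p = 0.000718) in Bcl6+/+ cells. In YFP-positive, Bcl6yfp/+ and Bcl6+/+ cells it kept its call under every alternative run, and its difference stayed positive in each.

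Fads2 stood at 3.72 and 2.29 in naive cells, at 2.69, 8.10 and 8.02 in Bcl6yfp/+ and at 6.29, 7.93 and 7.93 in Bcl6+/+ cells. It rose in YFP-positive (3.98, SE 1.37, adjusted p = 0.0388) and Bcl6+/+ cells (4.38, SE 1.44, adjusted p = 0.028) and did not pass in Bcl6yfp/+ cells, where replicate 1 lay near the floor. As naive values lie near the floor of the scale, its size depends on that floor. Fads2 passed the filter only through CXCR5hi PD-1hi arrays, so its direction against naive cells was fixed by that choice. Both calls, which are part of the counts above, were lost with the mean of all its probe sets. Stard4 stood at 10.15 and 8.91 in naive, 9.80, 11.24 and 11.35 in Bcl6yfp/+ and 10.60, 11.04 and 11.11 in Bcl6+/+ cells. It rose in YFP-positive (2.04, SE 0.52, adjusted p = 0.00723) and YFP-negative cells (1.52, SE 0.52, adjusted p = 0.0469). Insig2, an SREBP restraint, stood at 9.81 and 9.90 in naive cells, at 11.22, 10.98, 10.48 and 10.93 in the YFP-positive and at 11.51, 10.95, 10.38 and 10.82 in the YFP-negative fraction. It was called in the 4 CXCR5hi PD-1hi groups, by 1.05 to 1.16, and stood at 10.58, 10.75 and 10.40 in CXCR5lo PD-1lo, 10.24, 11.23 and 11.29 in Bcl6yfp/+ and 10.67, 11.10 and 11.27 in Bcl6+/+ cells. Each of these 4 calls of Insig2 was lost with the mean of all its probe sets and after quantile normalization. Pmvk, the phosphomevalonate kinase, stood at 9.88 and 9.04 in naive, 10.94, 10.98, 11.25 and 9.76 in YFP-positive, 10.19, 11.12 and 11.09 in Bcl6yfp/+ and 10.66, 10.85 and 10.91 in Bcl6+/+ cells. It rose in these 3 groups by 1.27 to 1.35, although YFP-positive replicate 4 overlapped naive replicate 1; it stood at 10.27, 10.38, 10.56 and 9.46 in YFP-negative and 9.67, 9.48 and 9.75 in CXCR5lo PD-1lo cells.

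Mvd was the 1 gene called lower. It stood at 8.48 and 8.64 in naive cells against 7.53, 7.08, 7.51 and 6.18 in YFP-positive cells. It fell in YFP-positive (-1.49, SE 0.50, adjusted p = 0.0341) and YFP-negative cells (-1.94, SE 0.50, adjusted p = 0.0102), with no overlap. In Bcl6yfp/+ and Bcl6+/+ cells it stood at 7.14, 7.68 and 7.51 and at 8.36, 7.52 and 7.31, all below naive. Hmgcs1, Idi1, Sqle and Cyp51 did not pass. In naive cells Hmgcs1 stood at 13.32 and 12.79, Idi1 at 11.19 and 10.09, Sqle at 9.74 and 8.71 and Cyp51 at 10.93 and 9.86. Blocked by normalization set, Sqle fell against naive in YFP-positive cells (-1.92, adjusted p = 0.0183, limma), in YFP-negative cells (-2.89, adjusted p = 0.00276) and in CXCR5lo PD-1lo cells (-2.91, adjusted p = 0.00893). In this fit the YFP fractions are linked to naive cells only through the day 10 replicates 4, which share a set with naive replicate 1. CXCR5lo PD-1lo cells share no set with naive cells, so their difference is indirect. Over all settings the adjusted p of Sqle ran from 0.0183 to 0.998 in YFP-positive, 0.00276 to 0.491 in YFP-negative and 0.00893 to 0.665 in CXCR5lo PD-1lo cells. Naive values of the remaining genes followed as a set were 12.85 and 11.94 for Insig1, 10.37 and 9.71 for Srebf1 and 12.14 and 11.25 for Srebf2. For Abca1 they were 9.73 and 9.16, for Abcg1 12.99 and 11.71, for Fasn 10.54 and 10.24, for Fads1 7.54 and 7.66 and for Scd1 2.15 and 2.25.

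**Figure D3:**
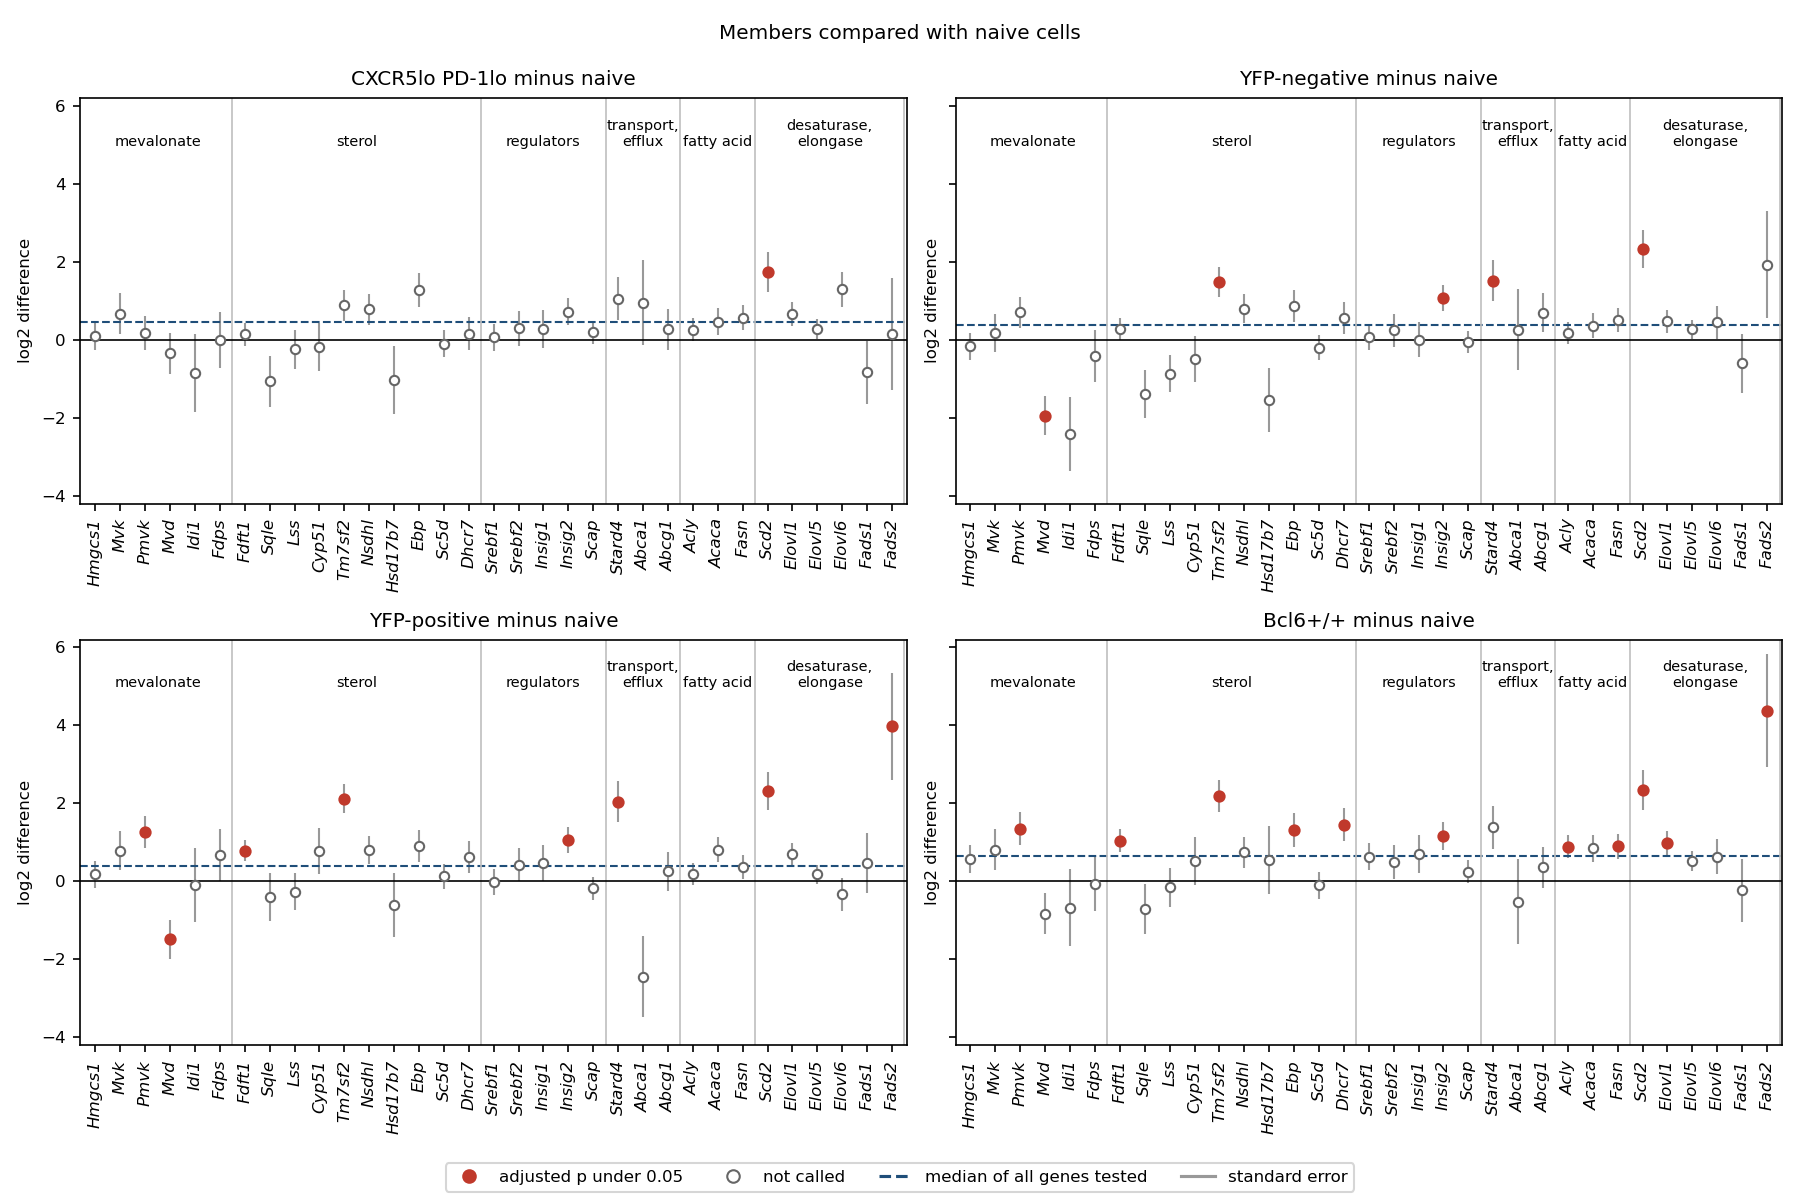
Log2 difference from naive cells with its standard error for the 33 genes kept, in CXCR5lo PD-1lo, YFP-negative, YFP-positive and Bcl6+/+ cells; filled points passed limma's test and the dashed line is the median of all genes tested. Scd2 is filled in all 4 panels and Tm7sf2 in 3, and Mvd is filled below 0 in the YFP-negative and YFP-positive panels.

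In Bcl6+/+ cells the genes called included 2 of 3 fatty acid synthesis genes, Acly, which makes acetyl-CoA from citrate, and Fasn, and the elongase of very long chains Elovl1; Acaca was not called. Acly stood at 14.27, 14.55 and 14.56 in Bcl6+/+ and at 13.49 and 13.65 in naive cells (log2 difference 0.89, SE 0.29, adjusted p = 0.0271, limma). Elovl1 stood at 12.72, 12.46 and 12.54 against 11.56 and 11.62 (log2 difference 0.98, SE 0.31, adjusted p = 0.0229), and Fasn at 11.84, 10.87 and 11.17 against 10.54 and 10.24 (log2 difference 0.90, SE 0.32, adjusted p = 0.0405). The 3 differences lay just above the shift of all genes, 0.64; with the normalization set as a block Acly turned to -0.14 and Elovl1 to -0.15. Fdft1, the squalene synthase, stood at 11.09, 10.53 and 10.70 in Bcl6+/+, 10.76, 10.61, 10.79 and 9.89 in YFP-positive and 9.69 and 9.77 in naive cells. It rose in Bcl6+/+ (1.05, SE 0.29, adjusted p = 0.011) and YFP-positive cells (0.79, SE 0.27, adjusted p = 0.0396). Ebp and Dhcr7, late enzymes of the sterol route, rose by 1.32 and 1.45 in Bcl6+/+ cells. The count of 11 in Bcl6+/+ cells fell to 4 without Bcl6+/+ replicate 3 (25% of all genes called), to 7 without replicate 2 (29.3%) and to 4 without naive replicate 1 (21.7%). In Bcl6yfp/+ cells it went from 4 to 13 without Bcl6yfp/+ replicate 1, where 44.8% of all genes were called, and to 2 without replicate 2 (12.7%) or 3 (13.4%). In YFP-positive cells it was 5, 3 and 5 without replicate 1, 2 or 3 (23.1%, 23.9% and 25.2%) and 4 without naive replicate 1 (19.6%). In YFP-negative cells it was 3 without replicate 1 or 2 (17% each) and 2 without naive replicate 1 (14.1%). In CXCR5lo PD-1lo cells the call of Scd2 was lost without replicate 1 (6.59%) or 2 (8.57%), and in the fit blocked by normalization set.

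The 2 genotypes were compared to ask whether the reporter allele alters these genes. All Bcl6yfp/+ arrays are of day 7 while Bcl6+/+ replicates 1 and 2 are of day 10, so the comparison cannot set genotype apart from day. Replicate 1 of each genotype also lies in a different normalization set. None of 33 genes passed limma's test between Bcl6yfp/+ and Bcl6+/+ cells, 0 had an unadjusted p under 0.05 (2.89% of all genes), and the share of all genes called was 0%. The median of the 33 genes was -0.20, against -0.26 for all genes. Bcl6yfp/+ replicate 1 stood apart: 30 of 33 genes were lowest there within the group, as were 80.8% of all genes. Hmgcs1 stood at 12.88, 13.85 and 13.68 in Bcl6yfp/+ and at 13.57, 13.67 and 13.65 in Bcl6+/+ cells. Idi1 stood at 9.11, 10.64 and 10.59 and at 9.03, 10.62 and 10.24, Sqle at 8.29, 8.42 and 9.13 and at 9.43, 8.04 and 8.08, and Cyp51 at 9.89, 11.44 and 11.48 and at 10.38, 11.24 and 11.11 in the same order. The groups overlapped for each of these. The largest difference was that of Fads2 (log2 difference -1.11, SE 1.29, adjusted p = 0.868), and it became 0.68 without Bcl6yfp/+ replicate 1. Next were Elovl6, at 8.45, 9.24 and 9.80 against 10.42, 9.46 and 9.75, and Fasn, at 10.37, 10.89 and 10.81 against 11.84, 10.87 and 11.17. Fads1, the partner desaturase of Fads2, stood at 7.19, 6.26 and 7.06 against 9.00, 6.33 and 6.79. Insig1 stood at 12.37, 13.40 and 13.50 against 12.47, 13.43 and 13.40, Srebf1 at 10.11, 10.17 and 10.38 against 11.44, 10.13 and 10.46, and Srebf2 at 11.19, 12.70 and 12.70 against 11.38, 12.69 and 12.51. Abca1 stood at 10.05, 8.80 and 8.71 against 8.58, 8.31 and 9.89 and Abcg1 at 12.01, 13.19 and 13.19 against 11.70, 13.21 and 13.23. Replicate 1 of both genotypes was apart from replicates 2 and 3 in the same direction for Srebf2, Insig1 and Abcg1. In the fit of all 19 arrays with no block, genes not called in any of the 10 comparisons of group or day numbered 18, among them Hmgcs1, Idi1, Sqle, Cyp51, Insig1, Srebf1, Srebf2, Fads1 and Abcg1 and, not described singly, Mvk, Lss, Nsdhl, Sc5d, Scap, Acaca and Elovl5. Standard errors of the 33 differences between genotypes ran from 0.23 to 1.29. A difference had to lie well above its error to pass, so differences of this size, and larger ones, could not be told from 0.

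Days were compared within the 3 groups that hold both. With the groups held constant, 0 of 33 genes passed in limma, and 0.232% of all genes did; 9 of 33 had an unadjusted p under 0.05, against 10.2% of all genes. The 6 mevalonate genes were all lower on day 10, with a median of -0.80, as were 9 of 10 sterol genes, with a median of -0.47, against -0.14 for all genes. Idi1 had the largest difference (log2 difference -2.17, SE 0.46, adjusted p = 0.0676), followed by Fdps (-1.39) and, with the other sign, Abca1 (1.35; -0.13 with the normalization set as a block). Fdps stood at 10.75, 10.50, 11.09 and 9.05 in YFP-positive, 8.49, 9.77, 10.10 and 8.65 in YFP-negative and 8.25, 10.30 and 10.30 in Bcl6+/+ cells, with each day 10 array of the reporter sort below each of day 7; Bcl6+/+ replicate 1 was lowest and replicate 2, also day 10, was level with the day 7 array. With the replicate block the day term rests on 1 array, YFP-negative replicate 1, since only number 1 of the reporter sort holds both days. In that fit Idi1 differed by -3.43 and Cyp51 by -1.46. Over all settings the adjusted p in limma ran from 0.00117 to 1 for Idi1 and from 0.025 to 1 for Cyp51. Leaving out Bcl6+/+ replicate 1, 2 or 3 gave 1, 2 or 4 genes, all lower (1.32%, 1.18% and 3.97% of all genes called). Without the Bcl6+/+ group 7 genes were called (4.74% of all genes), all lower: Idi1, Sqle, Fdps, Cyp51, Lss, Hsd17b7 and Fads1.

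The days were then kept apart by group, with 1 day term for the reporter groups and 1 for Bcl6+/+ cells. In the reporter groups 4 of 33 genes fell on day 10 (2.67% of all genes fell): Idi1 (-2.84, SE 0.45, adjusted p = 0.00256), Sqle (-1.66, SE 0.35, adjusted p = 0.0173), Cyp51 (-1.52, SE 0.36, adjusted p = 0.0306) and Hsd17b7 (-2.02, SE 0.53, adjusted p = 0.0487; limma). Hsd17b7 rests on 1 probe set, as its others lay at the floor. It stood at 3.95 and 3.93 on YFP-positive and YFP-negative replicate 4, below the log2 4 of the filter. In Bcl6+/+ cells, whose day 7 group is 1 array, 0 genes were called in limma and 0 had an unadjusted p under 0.05; Idi1 differed by -0.42 (SE 0.72) and Sqle by 0.65 (SE 0.56). The difference between the 2 day effects was not called for any of the 33 genes (0.121% of all genes), of which 6 had an unadjusted p under 0.05, with -2.42 (SE 0.85, adjusted p = 0.693) for Idi1, -2.31 (SE 0.66, adjusted p = 0.417) for Sqle and 3.86 (SE 1.28, adjusted p = 0.633) for Abca1. YFP-positive replicate 4, the 1 day 10 array of its group, was the lowest of 4 for 27 of 33 genes, and for 52.2% of all genes. YFP-negative replicates 1 and 4 both lay below replicates 2 and 3 for 12 of 33 genes, and for 21.5% of all genes. YFP-negative replicate 1, of day 10, shares its normalization set with day 7 arrays. It was as low as replicate 4 for Idi1, at 6.63 against 6.96, and for Sqle, at 6.94 against 7.05. Of the 33 genes, 6 were lowest of the group on replicate 1 and 10 highest (14.7% and 41.7% of all genes). On replicate 4, 19 were lowest and 1 highest (54.2% and 8.9% of all genes). Day and Y-linked transcripts coincide on these arrays and cannot be told apart. With the groups held constant, 4 of 4 myeloid markers kept were higher on day 10 (median 1.22), against -0.14 for all genes. So were 3 of 4 plasma cell markers (median 0.95) and 0 of 2 adipocyte markers (median -0.71). None of these markers passed in limma, and their part in the day differences was not tested.

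**Figure D4:**
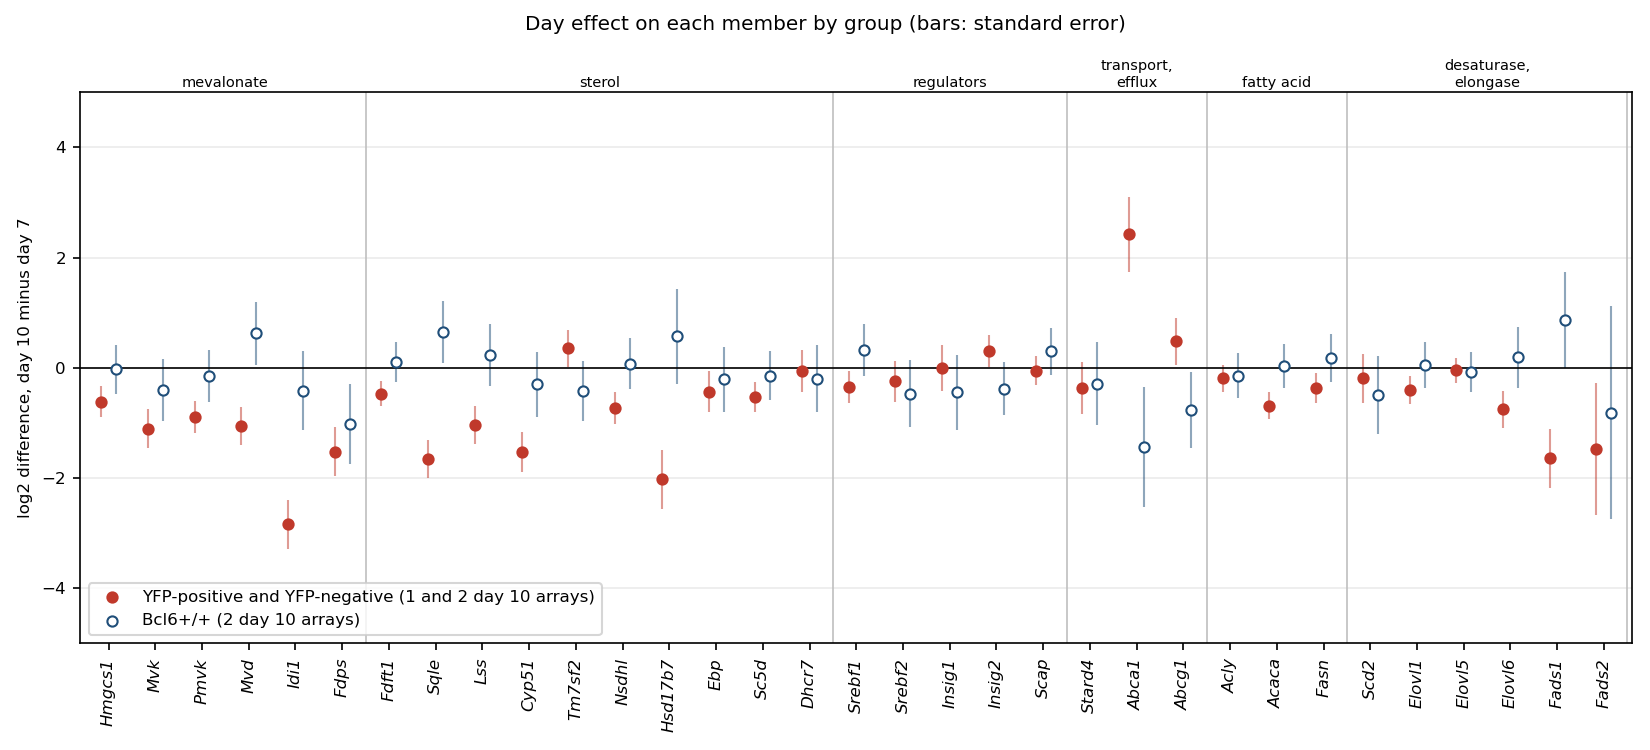
Log2 difference between day 10 and day 7 with its standard error for the 33 genes kept, in the reporter groups (filled) and in Bcl6+/+ cells (open). Idi1 lies at -2.84 in the reporter groups and at -0.42 in Bcl6+/+ cells, and Abca1 lies on opposite sides of 0.

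Cell cycle genes leaned the same way as the mevalonate genes in the reporter sort. All 25 cell cycle genes kept were higher in YFP-positive than in YFP-negative cells, by a median of 2.78, and all 25 were lower on day 10, by a median of -1.61. In limma 0 of them passed in either comparison, while 23 and 20 had an unadjusted p under 0.05. Their mean level ran from 9.77 to 12.4 in YFP-positive, 7.32 to 10.5 in YFP-negative, 7.98 to 11.01 in CXCR5lo PD-1lo and 6.01 to 6.21 in naive cells. The part of cell division in the differences above was not tested.

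**Figure D5:**
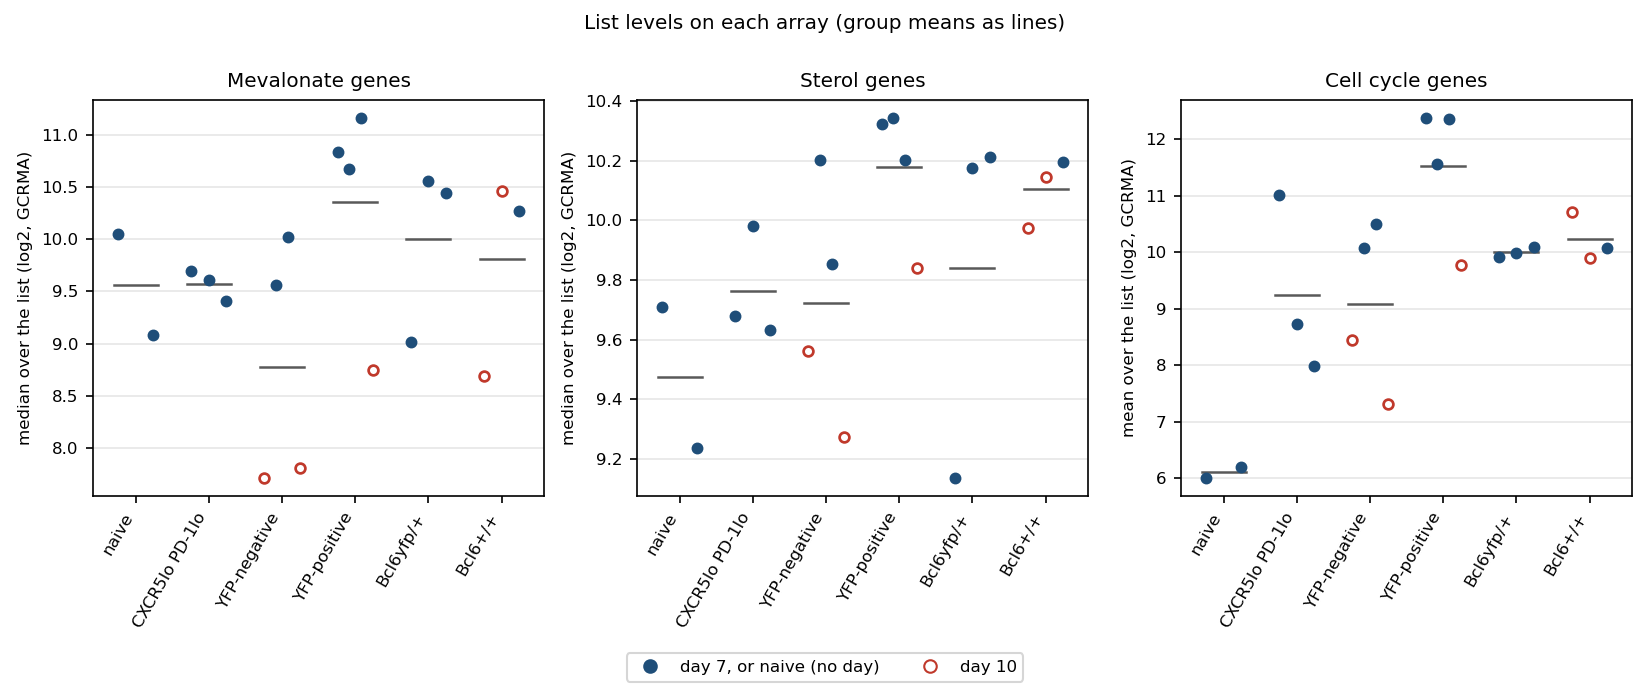
Level of the 6 mevalonate genes and of the 10 sterol genes (median) and of 25 cell cycle genes (mean) on each array by group, in log2; open points are day 10 and lines are group means, and the vertical axes differ. The lowest cell cycle value of the YFP-positive group, 9.77, and of the YFP-negative group, 7.32, are those of the day 10 replicates 4.

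Other genes of these pathways were taken from 2 further lists of 33 genes each, of which 22 of sterol handling and 20 of fatty acid handling were kept. Between YFP-positive and YFP-negative cells 0 of these passed in limma, 3 of each list had an unadjusted p under 0.05, and the list medians were 0.00 and -0.04. Against CXCR5lo PD-1lo cells Acss2, which makes acetyl-CoA from acetate, fell in YFP-positive (-2.01, SE 0.23, adjusted p = 1.66e-05) and YFP-negative cells (-1.49, SE 0.23, adjusted p = 0.000463). Acsl3, an acyl-CoA synthetase, rose in both (1.69, SE 0.23, adjusted p = 9.29e-05, and 1.77, SE 0.23, adjusted p = 7.08e-05). The lysosomal cholesterol carrier Npc2 fell in YFP-positive cells (-1.003, SE 0.26, adjusted p = 0.0171), and the fatty acid binding protein Fabp5 fell in YFP-negative cells (-1.84, SE 0.45, adjusted p = 0.0173). Against naive cells Acss2 fell in all 5 groups, by -1.19 in CXCR5lo PD-1lo to -3.20 in YFP-positive cells, while Mid1ip1, which promotes assembly of acetyl-CoA carboxylase, rose in all 5, by 1.99 to 2.59. The elongase Elovl7 also fell in all 5, but it passed the filter only through the naive arrays, so its difference was fixed by that choice. In these comparisons 1 to 4 of 22 sterol handling genes and 3 to 12 of 20 fatty acid handling genes rose. Of all genes, 10.3% rose in CXCR5lo PD-1lo, 22.4% in YFP-positive, 16.5% in YFP-negative, 15.4% in Bcl6yfp/+ and 31.5% in Bcl6+/+ cells.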

How the data were processed

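Expression was measured on 19 Affymetrix arrays, 1 per sorted sample, hybridised with biotin-labelled cDNA. The deposited values are log2 expression per probe set, made by the authors with GCRMA per the submitters' processing notes, which state no version or settings. The median of an array lay between 2.40 and 2.99. Values near 2 are the floor of the scale, so differences against a group at that level depend on the floor. The number of arrays limits the precision.

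Probe sets were named through GEO's platform annotation and RefSeq gene table GRCm38.p6 (34945 of 45101 with 1 symbol, 932 with several, 9160 with none, 64 controls). Group means were fitted to all 19 arrays with limma 3.58.1 in R 4.3.3, with 1 shared spread, and the day as an added term. Benjamini-Hochberg adjustment ran over the 9928 genes tested, and a gene was called under 0.05; every adjusted p in the text is limma's. SE is that of the fit. In simulated data for the YFP-positive and YFP-negative comparison over 9928 genes, 42.6%, 72.7% and 98.5% of changes of log2 1, 2 and 4 were recovered, with 9 false calls. In the data themselves 0 of 25 cell cycle genes were called, at a median difference of 2.78. The simulated shares may therefore not hold for these arrays.

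A normalization set is a group of arrays with sorted values less than 0.06 log2 apart on average. Same-numbered samples deviated together from their group means (r of 0.45 to 0.868 for YFP-positive and YFP-negative, 0.391 to 0.684 for YFP-positive and CXCR5lo PD-1lo, 0.267 to 0.387 for YFP-negative and CXCR5lo PD-1lo, 0.572 to 0.64 for the genotypes), so the numbers, from the labels, were taken as pairs. These numbers also coincide with the normalization sets.

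The genes and lists were chosen with earlier results of these data known. Per comparison, array values are given for 14 key genes and for the 3 highest and 3 lowest differences among called genes, or the 3 largest where none was called; other pathway genes are named only where called, at most 3 per comparison. Alternatives were quantile normalization, the normalization set or replicate number as a block, other filters and probe set rules, other fits, day as a covariate and leaving out each array. Fits on day 7 and naive arrays only, the separate day terms, day without the Bcl6+/+ group or from it only, the relaxed sterol element and the count over same-day pairs were added after seeing the data.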

Additional observations from a re-analysis of the deposited data

Results flagged for a closer look

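Within groups of 4 arrays, 4 of 66 sets of values held an array far from the other 3 by Dixon's test at the 95% level, which chance gives in about 1 in 20 groups. Hmgcs1 stood at 12.41 on YFP-positive replicate 4, of day 10, and at 13.45 to 13.58 on the other 3 arrays. Sc5d, a late desaturase of the sterol route, stood at 9.79 on the same array, against 10.55 to 10.63. Elovl6 stood at 8.93 on YFP-negative replicate 4, also of day 10, against 9.92 to 9.96. Abcg1 stood at 11.83 on YFP-positive replicate 3, of day 7, against 12.79 to 12.94.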

How the results depend on the processing

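Counts are of the 33 genes called in limma. With the normalization set as a block they were 14 for YFP-positive against YFP-negative, 21 and 9 for YFP-positive and YFP-negative against CXCR5lo PD-1lo, and 11, 14, 16 and 3 for CXCR5lo PD-1lo, YFP-positive, YFP-negative and Bcl6+/+ against naive. In the same order from the third of these on, the medians turned to 0.04, -0.45, -0.18, -0.37 and -0.04; the genotype median turned to 0.06 and Fads2 between genotypes to 0.13, Acly and Elovl1 in Bcl6+/+ against naive to -0.14 and -0.15, and Abca1 by day to -0.13. After quantile normalization counts were 7 for YFP-positive against CXCR5lo PD-1lo, 3, 10 and 6 for CXCR5lo PD-1lo, YFP-negative and Bcl6+/+ against naive, and 1 by day; medians turned to 0.03 (YFP-negative against CXCR5lo PD-1lo), -0.24, -0.04 and -0.22 (CXCR5lo PD-1lo, YFP-positive and YFP-negative against naive) and 0.01 (genotypes). With the replicate block counts were 2, 13 and 7 for the comparisons of the reporter sort, and the median of YFP-negative against CXCR5lo PD-1lo was 0.04. The block changed no call between genotypes. Its day term rests on 1 array, YFP-negative replicate 1.

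With day as a covariate, or on day 7 and naive arrays only, YFP-positive against CXCR5lo PD-1lo gave 5 calls each and YFP-negative 0 each, with medians of 0.11 and 0.07; day 7 arrays gave 2 and 3 calls for YFP-negative and Bcl6+/+ against naive. With a trended, robust variance counts were 5 for YFP-positive against CXCR5lo PD-1lo, 2 for CXCR5lo PD-1lo against naive and 1 by day. With the mean of all probe sets they were 2 and 5 for CXCR5lo PD-1lo and YFP-positive against naive, and Acly in Bcl6+/+ against naive turned to -0.10. With no filter they were 0, 0, 5 and 2 for YFP-negative against CXCR5lo PD-1lo and for CXCR5lo PD-1lo, YFP-positive and Bcl6yfp/+ against naive. Fitting only the groups compared gave 0, 0 and 1 for YFP-negative against CXCR5lo PD-1lo and for CXCR5lo PD-1lo and Bcl6yfp/+ against naive. By day, 7 were called without the Bcl6+/+ group, and Abca1 was -1.44 from that group only.

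Leaving out 1 array gave 0 to 2 calls for YFP-positive against YFP-negative, 0 to 4 and 0 to 1 for YFP-positive and YFP-negative against CXCR5lo PD-1lo, and 0 to 1, 1 to 11, 0 to 6, 1 to 13 and 1 to 9 for CXCR5lo PD-1lo, YFP-positive, YFP-negative, Bcl6yfp/+ and Bcl6+/+ against naive. It gave 0 to 0 between genotypes and 0 to 4 by day. Medians ran from -0.19 to 0.02 for YFP-negative against CXCR5lo PD-1lo and from -0.34 to 0.13 between genotypes, and Fads2 between genotypes from -2.03 to 0.68. Over the called genes and these alternatives, 319 values kept the call and direction, 160 lost the call and 3 turned; the cause was not tested. Low signal limits Fads2 and Scd1.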
